A study of Bos taurus with 12 samples.

Results

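This section describes 7 genes that restrain or carry inflammatory signalling, NFKBIA, DUSP1, ZFP36, TNFAIP3, NFKB1, RELA and IER3, in the biceps brachii of cattle given corticosteroid growth promoters. They were found by gene symbol, from a list drawn up with earlier results of these data known. Each was found on the array through 1 probe, so they account for 7 of 21475 probes other than controls, and each probe was printed as 2 spots.

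The animals were 12 male cattle of 18 to 20 months, 4 in each of 3 groups, and each array carries 1 bull. The control group was untreated. The dexamethasone group received dexamethasone, a synthetic glucocorticoid, in feed, at a dose of 0.75 mg for each animal, for 42 days. Doses and days were recorded separately, and a dose is not to be read as the total of a course. The combination group received a lower dose of dexamethasone for a shorter time (0.66 mg for each animal, for 21 days). It also received clenbuterol, a beta-adrenergic agonist, for 28 days, at a dose raised from 2 mg through 4 mg to 6 mg. The treated groups thus differ in the steroid course as well as in clenbuterol. The combination arrays also shared no slide with those of the other groups. The 12 hybridised samples were those with the best RNA out of 24 animals. The labels do not say how long before slaughter dosing ended.

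NF-kappa-B is a family of transcription factors, built from subunits such as RELA (p65) and the p50 product of NFKB1, that switches on cytokine, chemokine and adhesion genes. In resting cells the inhibitor encoded by NFKBIA (I-kappa-B alpha) holds it in the cytoplasm, and inflammatory signals trigger the destruction of the inhibitor. NFKBIA and TNFAIP3 are themselves NF-kappa-B targets and close a negative feedback loop, and glucocorticoids are known to induce NFKBIA, DUSP1 and ZFP36 directly in many cell types. In muscle the same pathway has been linked to wasting.

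Levels are given as log2 of the processed signal minus the 75th percentile of the same array, so a level of 0 lies at that percentile. Between 53.2% and 68.7% of the spots of an array were well above background, and 4 arrays in a group set the precision of every comparison. Arrays correlated at 0.9516 to 0.9839 within groups and at 0.9568 to 0.9769 between groups. Of 10 skeletal muscle markers, TNNT3 ranged from the 73.8th to the 99.6th percentile of signal over the arrays, and the other 9 were at or above the 96.7th percentile on every array. NFKBIA, DUSP1, ZFP36, RELA and IER3 were well above background on all 12 arrays, TNFAIP3 on none and NFKB1 on 3, and a gene had to be so on at least 4 arrays, in whatever group, to be tested.

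NFKBIA was the only tested member at a limma adjusted p under 0.05 after dexamethasone, and it was lower than in controls. Its level was 3.49, 3.73, 3.58 and 3.19 in the 4 controls, 1.57, 1.60, 1.17 and 1.61 in the 4 dexamethasone bulls, and 3.47, 1.98, 2.84 and 3.39 in the 4 bulls of the combination. All dexamethasone arrays lay below all others. Those of the combination spread from near the dexamethasone level to within the range of the controls. The means were 3.5 ± 0.22 (SD, n = 4) in controls, 2.92 ± 0.69 in the combination and 1.49 ± 0.21 in the dexamethasone group.

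After dexamethasone alone NFKBIA was 4.03-fold lower than in controls, with a 95% interval of 2.61 to 6.22 (log2 change -2.01 ± 0.29 SE, limma adjusted p = 0.00929). It ranked 21 by p of 13671 genes tested. Of these, limma called 0.614% at an adjusted p under 0.05 and 0.585% as lower, and 3.93% had all 4 dexamethasone values below all 4 control values. Among the 5 members tested, 1 was called. The difference was -1.75 within scan day 2 (3 treated arrays against 1 control). It was -1.99 outside that day, where the 1 treated array was scanned on day 3 and the 3 controls on day 1. That second difference is therefore not within a day or a slide. With scan day 2 against the other days as a block the log2 change was -1.81 and the call was lost (limma adjusted p = 0.0512).

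For the combination against control limma called 0.0439% of genes and none of the 5 members, and 8.23% of genes but no member had values that did not overlap. NFKBIA did not pass (log2 change -0.58, 95% interval -1.20 to 0.05, limma adjusted p = 0.441). Set against dexamethasone alone, the combination was higher by a log2 change of 1.43 (interval 0.81 to 2.06, 2.70-fold). The 4 values did not overlap those of the dexamethasone group, but the difference did not pass the correction over all genes (limma adjusted p = 0.147). Without replicate 2 of the combination, the lowest of its group at 1.98, the log2 change was 1.75 and passed (limma adjusted p = 0.016). That array was the nearest to the dexamethasone group, so leaving it out could only raise the difference. The same omission raised the genes called in this contrast from 2 to 15. In this contrast limma called 0.0146% of genes, all higher in the combination, and 2.53% of genes had all combination values above all dexamethasone values.

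**Figure D1:**
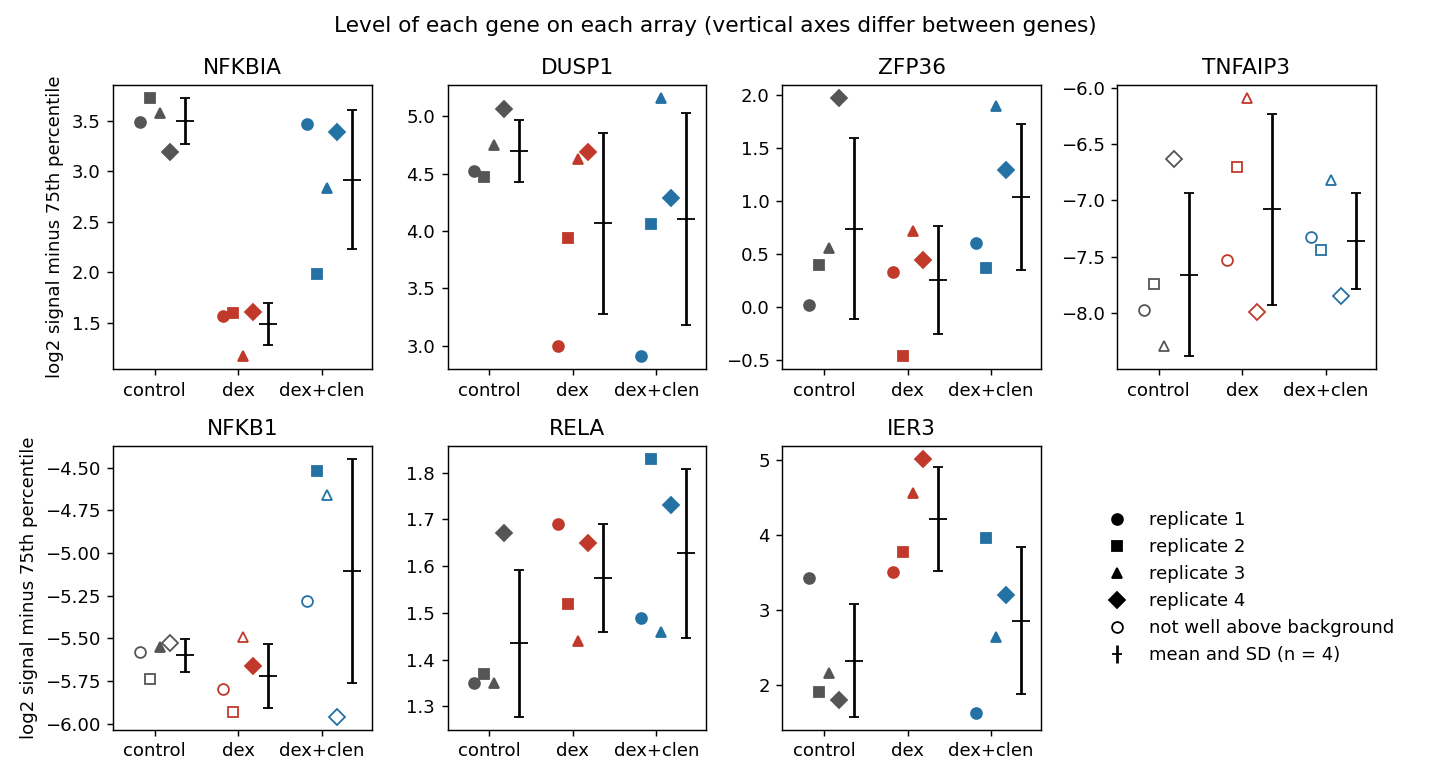
Level of the 7 genes on each of the 12 arrays (log2 signal minus the array's 75th percentile; the vertical axes differ), with the mean and SD of each group of 4. NFKBIA separates the dexamethasone group, at 1.17 to 1.61, from the controls, at 3.19 to 3.73, and open symbols mark arrays where the probe was not well above background.

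RELA, the transactivating p65 subunit that the NFKBIA product restrains, passed in no comparison. It was at 1.35, 1.37, 1.35 and 1.67 in controls, 1.69, 1.52, 1.44 and 1.65 after dexamethasone, and 1.49, 1.83, 1.46 and 1.73 after the combination. The groups overlapped, and all 12 values lay between 1.35 and 1.83. The log2 change was 0.14 (95% interval -0.18 to 0.46, limma adjusted p = 0.755) for dexamethasone and 0.19 (interval -0.13 to 0.51, limma adjusted p = 0.617) for the combination. The interval for the combination against dexamethasone was -0.27 to 0.37. These were the narrowest intervals among the members tested. Within scan day 2, RELA differed from control by -0.11 for dexamethasone and -0.07 for the combination. Control replicate 4, the highest control, was the only control there. Outside that day the differences were 0.29 and 0.37, each between a treated array and controls scanned on different days.

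NFKB1, which encodes the p105 precursor of p50, was near the background of the array. It was well above background on 1 array of each group, its levels ran from -5.96 to -4.52, and its 2 spots differed by a median of 0.469 and by up to 1.58 log2 units on one array, against a median of 0.0370 for NFKBIA. It was not tested, and no direction can be given for it. Its probe was also named only through the human match of an expressed sequence tag.

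TNFAIP3 encodes A20, a ubiquitin-editing enzyme that ends signalling from tumour necrosis factor receptors. Its probe was not well above background on any array (processed signal of 2.92 to 11.9, levels of -8.29 to -6.09), so its level in this muscle is not known. The sequence of the probe was not checked, so a low level and a failing probe cannot be told apart. No comparison was made for it.

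DUSP1 is the phosphatase that switches off p38 and JNK MAP kinases. Its level was 4.52, 4.47, 4.75 and 5.06 in controls, 3.0, 3.94, 4.63 and 4.69 after dexamethasone, and 2.91, 4.06, 5.16 and 4.29 after the combination. Replicate 1 of each treated group was the lowest, and the highest value of all belonged to the combination, so the groups overlapped. The controls were the tightest group, at 4.70 ± 0.27 (SD, n = 4) against 4.07 ± 0.79 and 4.10 ± 0.93.

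Neither treatment passed for DUSP1. The log2 change was -0.64 (95% interval -1.62 to 0.35, limma adjusted p = 0.622) for dexamethasone and -0.60 (interval -1.59 to 0.39, limma adjusted p = 0.618) for the combination. Both intervals hold 0 and falls of more than 1.5 log2 units. For dexamethasone against control the difference was -1.21 within scan day 2, where control replicate 4 was the only control. Outside that day it was 0.11, between arrays scanned on different days.

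ZFP36 encodes tristetraprolin, which binds AU-rich elements of cytokine messages and speeds their decay. Its level was 0.02, 0.40, 0.56 and 1.97 in controls, 0.33, -0.46, 0.72 and 0.44 after dexamethasone, and 0.60, 0.37, 1.89 and 1.29 after the combination. Control replicate 4 and replicate 3 of the combination stood at the top, and the groups overlapped. The log2 change was -0.48 (95% interval -1.44 to 0.48, limma adjusted p = 0.718) for dexamethasone, 0.30 (interval -0.66 to 1.25, limma adjusted p = 0.817) for the combination, and 0.78 (interval -0.18 to 1.74, limma adjusted p = 0.556) between the treatments. Within scan day 2 both differences from control were below 0, at -1.78 for dexamethasone and -1.02 for the combination. Control replicate 4 was the only control there. Outside that day the differences were 0.11 and 0.96, each between a treated array and controls scanned on different days. Without control replicate 4 the log2 changes were -0.07 and 0.71, and without replicate 3 of the combination the second was 0.01.

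IER3, an immediate early gene that NF-kappa-B induces and whose product modulates cell survival and ERK signalling, was the only tested member besides NFKBIA whose dexamethasone and control values did not overlap, and its values lay the other way. Its level was 3.43, 1.91, 2.17 and 1.81 in controls, 3.51, 3.77, 4.56 and 5.02 after dexamethasone, and 1.63, 3.96, 2.65 and 3.20 after the combination. All dexamethasone values lay above all control values, the nearest pair being 3.51 and 3.43. The combination spanned the range of the controls, and 1 of its 4 values, 3.96, lay within that of the dexamethasone group.

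The log2 change of IER3 after dexamethasone was 1.89 ± 0.51 SE (95% interval 0.77 to 3.0, 3.70-fold, unadjusted p = 0.00309 in limma), and it did not pass over all genes (limma adjusted p = 0.136). Values that did not overlap, with dexamethasone on top, were found for 2.52% of all genes. The difference was 2.14 within scan day 2 and 2.52 outside it, the latter between arrays scanned on different days. The combination differed from control by 0.53 (interval -0.58 to 1.65, limma adjusted p = 0.701) and from dexamethasone by -1.36 (interval -2.47 to -0.24, limma adjusted p = 0.361).

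**Figure D2:**
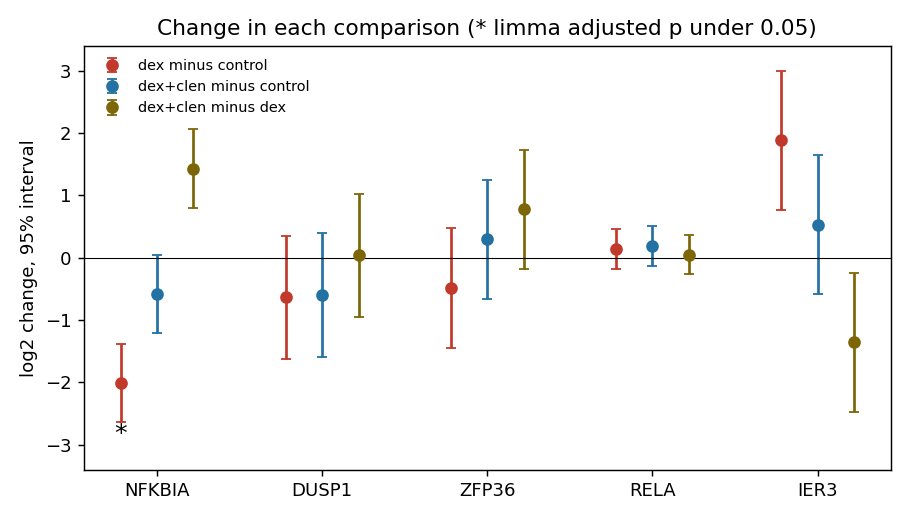
Log2 change with its 95% interval for the 5 members tested, in the 3 comparisons (limma, 4 arrays per group). One change carries the mark of an adjusted p under 0.05, that of NFKBIA after dexamethasone at -2.01, and the narrowest intervals are those of RELA.

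Across the members the order of the groups differed. For NFKBIA it was control, combination, dexamethasone from high to low, and for IER3 the reverse. For ZFP36 the combination was highest and dexamethasone lowest, for DUSP1 the controls were highest and the treated groups nearly equal, and for RELA the combination was highest. No neighbouring groups passed the test in any of these orders, and of the neighbours only the combination and dexamethasone for NFKBIA had values that did not overlap. After dexamethasone 3 of the 5 members tested lay below 0, with a median log2 change of -0.48, where 45.4% of all genes lay below 0 and the median was 0.0338. After the combination 2 of 5 lay below 0, with a median of 0.19, against 46.2% of all genes and a median of 0.0320.

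With the group means removed, the 10 pairs of tested members were compared over the 12 arrays by an exact permutation within groups. The closest pair was DUSP1 and ZFP36, with Pearson's r = 0.559 (exact permutation p = 0.0516, adjusted over the 10 pairs 0.516) and Spearman's rho = 0.692 (exact permutation p = 0.0235, adjusted 0.235), and r was 0.778 without replicate 1 of the combination and replicate 1 of dexamethasone, the arrays farthest from the median of DUSP1. NFKBIA and IER3, which stood at opposite ends after dexamethasone, had r = -0.506 (exact permutation p = 0.218, adjusted 0.728) and rho = -0.399 (exact permutation p = 0.265, adjusted 0.663) within groups, and r was 0.067 without replicates 1 and 2 of the combination. No pair passed the adjustment.

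The genes with a symbol whose levels followed NFKBIA most closely over the 12 arrays, groups included, were ARRDC2, an arrestin-domain protein, FBF1 and ABI3BP, a matrix-associated protein, with Pearson correlations of 0.967, 0.953 and 0.951. For IER3 they were FLCN (folliculin), PPP2CB, a catalytic subunit of protein phosphatase 2A, and PISD (0.906, 0.873 and 0.864). For RELA they were SLC2A6, ENC1 and NOS3, the endothelial nitric oxide synthase (0.915, 0.896 and 0.890), for DUSP1 GNG3, GCN1 and NSG1 (0.913, 0.888 and 0.877), and for ZFP36 SELENOH, ABLIM3 and SH2D3C (0.825, 0.824 and 0.812). These are the highest of 11183 correlations each, over arrays that share the group differences, and are given as a description.

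Reference targets of the glucocorticoid receptor were set beside NFKBIA array by array. FKBP5, a chaperone of the receptor, was at 3.35, 2.99, 3.80 and 4.16 in controls, 0.55, 0.25, -0.01 and 1.19 after dexamethasone, and 4.66, 1.26, 2.31 and 3.26 after the combination. In the combination group NFKBIA, FKBP5, PER1, RASD1 and SGK1 each had their lowest value in replicate 2, then replicate 3. A second SGK1 probe gave a log2 change of 0.32 for the combination against control, where the probe used gave -0.44. KLF9 was lowest in replicate 3 (2.94, against 3.03 in replicate 2), PDK4 was at 2.75 in both, and NR3C1 was lowest in replicate 2 (2.17) and next lowest in replicate 1 (2.42). FKBP5, PER1 (a clock gene), RASD1 (a small GTPase) and KLF9 (a transcription factor) were the 4 of 7 genes on this list called lower after dexamethasone. Of all genes, 0.585% were called lower. For NR3C1, which encodes the receptor, the log2 change after dexamethasone was -0.22 ± 0.25 SE (limma adjusted p = 0.776). None of the 7 was called for the combination against control. At an unadjusted p under 0.05 in limma, 2 were lower there, as were 5.15% of all genes. In the combination against dexamethasone, RASD1 was called higher (log2 change 1.89, limma adjusted p = 0.0319), while FKBP5 (2.38, limma adjusted p = 0.174) and PER1 (1.63, limma adjusted p = 0.181), like NFKBIA, did not pass.

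**Figure D3:**
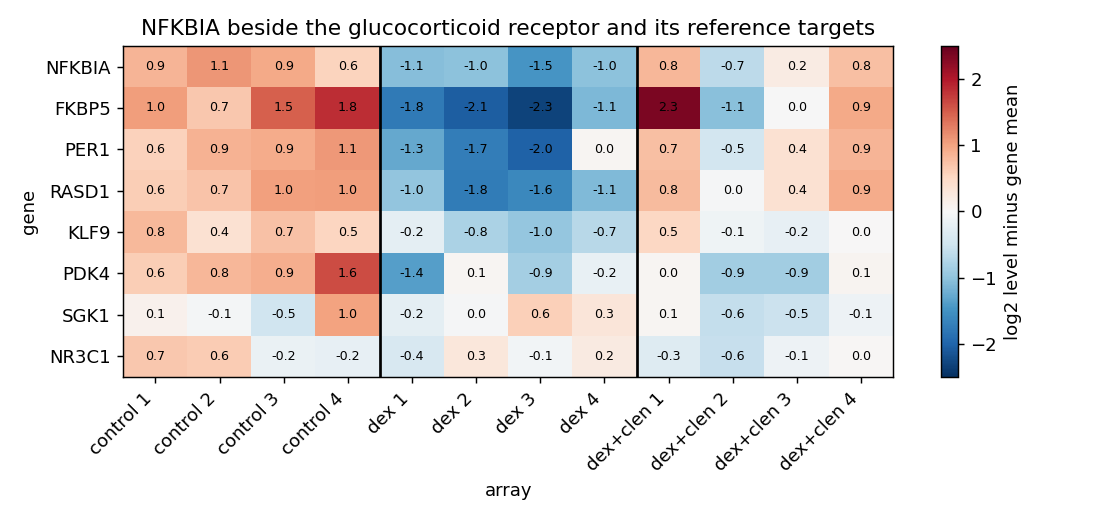
Log2 level of NFKBIA, 6 glucocorticoid receptor targets and the receptor gene NR3C1 on each array, as the difference from the gene's mean over 12 arrays (colour and number). NFKBIA, FKBP5 and RASD1 are low on all 4 dexamethasone arrays, and replicate 2 is the lowest array of the combination for NFKBIA, FKBP5, PER1 and RASD1 but not for KLF9, whose lowest is replicate 3.

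Other anti-inflammatory genes that glucocorticoids are known to induce had no called member in any contrast. Of the 8 measured, 6 lay below 0 after dexamethasone (median -0.37). At an unadjusted p under 0.05 in limma, 2 were lower and 1 higher (6.88% and 5.46% of all genes were). CD163, the haemoglobin scavenger receptor of macrophages, had the largest difference, at -2.73 ± 0.62 SE (limma adjusted p = 0.0778) after dexamethasone and -2.01 (limma adjusted p = 0.258) after the combination. SOCS3, a brake on cytokine receptor signalling, was at 0.67 (limma adjusted p = 0.239) after dexamethasone. TSC22D3, the glucocorticoid-induced leucine zipper, was well above background on 5 arrays and had -0.84 (limma adjusted p = 0.329) after the combination.

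Among the other NF-kappa-B subunits and I-kappa-B proteins, 7 of 8 were measured and none was called in any contrast. Most lay above 0: 6 of 7 had a log2 change above 0 after dexamethasone (median 0.28) and 6 of 7 after the combination (median 0.44). At an unadjusted p under 0.05 in limma, 3 were higher after dexamethasone and 4 after the combination (5.46% and 6.97% of all genes were), and none was lower (6.88% and 5.15%). RELB, partner of the alternative pathway, was at 0.94 ± 0.26 SE (limma adjusted p = 0.152) and 0.89 (limma adjusted p = 0.256). NFKB2, which encodes the p100 precursor of p52, was at 0.80 ± 0.23 SE (limma adjusted p = 0.155) and 0.79 (limma adjusted p = 0.241), and BCL3, an I-kappa-B protein that acts in the nucleus, at 1.03 ± 0.33 SE (limma adjusted p = 0.218) and 0.76 (limma adjusted p = 0.387).

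By array, RELB was at 0.07, 0.24, -0.01 and 0.63 in controls and 1.05, 1.78, 0.85 and 1.01 after dexamethasone, with no overlap. Of all genes, 2.52% had all dexamethasone values above all control values. Control replicate 4, the only control of scan day 2, was the highest control for RELB. In the combination RELB was at 0.52, 1.55, 1.02 and 1.39, where replicate 1 lay below control replicate 4. The list's mean deviation per array ran from -0.35 to -0.20 in controls, from -0.17 to 0.34 after dexamethasone and from -0.05 to 0.34 after the combination. NFKBIZ was the gene of this list below 0, at -0.62 and -0.34. BCL3 and NFKBIZ were picked after their values were seen.

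The kinases, adaptors and receptors that signal to NF-kappa-B were measured for 29 of 30 genes, and none was called in any contrast. After dexamethasone their median log2 change was 0.09, with 17 above 0. At an unadjusted p under 0.05 in limma, 1 was lower and 2 higher (6.88% and 5.46% of all genes were). RBCK1, part of the linear ubiquitin ligase, was at 0.52 (limma adjusted p = 0.23) and IRAK4, a kinase of Toll-like and interleukin-1 receptors, at -0.45 (limma adjusted p = 0.279). After the combination IRAK4 was at -0.59 (limma adjusted p = 0.224) and TRAF3 at 0.70 (limma adjusted p = 0.258). Between the treatments MAP3K14, the NF-kappa-B-inducing kinase, was at -1.0 (limma adjusted p = 0.392; its second probe gave -0.34) and TNFRSF1B, a tumour necrosis factor receptor, at -0.58 (limma adjusted p = 0.405).

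Partners of A20 and other deubiquitinases, 7 of 9 measured, had no call either. CYLD, which removes the ubiquitin chains that activate the kinases above, was at 0.60 ± 0.19 SE (limma adjusted p = 0.214) after dexamethasone and at -0.50 (limma adjusted p = 0.375) in the combination against dexamethasone. ITCH, a ubiquitin ligase that works with A20, was at -0.51 (limma adjusted p = 0.289) after the combination. The other dual-specificity phosphatases, 5 of 10 measured, had a median of 0.22 after dexamethasone and 0.23 after the combination, with none at an unadjusted p under 0.05 in limma. DUSP10 was at 0.58 (limma adjusted p = 0.422) and DUSP6, the ERK phosphatase, at -0.48 (limma adjusted p = 0.598) after dexamethasone.

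A list of MAP kinases, their activators and downstream kinases such as MAPKAPK2 and RPS6KA5 had 12 of 15 genes measured. They lay between -0.19 and 0.49 after dexamethasone with none at an unadjusted p under 0.05 in limma. After the combination MAP2K7, an activator of JNK, was at 0.49 (limma adjusted p = 0.324). It was the 1 gene of this list at an unadjusted p under 0.05 in limma, where 6.97% of all genes were higher. Genes of AU-rich element binding and deadenylation (17 of 18 measured), the machinery that ZFP36 works with, had medians of 0.01 and -0.02. PARN, a deadenylase, was at -0.50 (limma adjusted p = 0.365) after dexamethasone, and ZFP36L2, a relative of ZFP36, at 0.46 (limma adjusted p = 0.386) after the combination.

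Of the inflammatory genes that NF-kappa-B switches on, 15 of 24 were measured, and TNF, IL6, IL1A, CXCL8, CCL20, CXCL2, SELE, CSF2 and CSF3 did not reach the filter on background. None of the 15 was called in limma in any contrast, and their medians were -0.03 after dexamethasone and 0.24 after the combination. At an unadjusted p under 0.05 in limma, 3 were higher and none lower after dexamethasone (5.46% and 6.88% of all genes were). After the combination 1 was higher and 1 lower (6.97% and 5.15% of all genes were). The medians rest on 1 probe per gene. After dexamethasone ICAM1 was at -0.19 on the probe used and -1.62 on another, and LTA at -0.09 and 0.95. After the combination they were at -0.04 and 0 for ICAM1 and at -0.17 and 1.11 for LTA. TRAF1, an adaptor of tumour necrosis factor receptors, was at 0.97 ± 0.24 SE (limma adjusted p = 0.11) after dexamethasone, CCL2, a monocyte chemoattractant, at 2.00 ± 0.77 SE (limma adjusted p = 0.307) and IRF1, an interferon regulatory factor, at 0.63 (limma adjusted p = 0.339). SOD2, mitochondrial superoxide dismutase, was at -0.49 (limma adjusted p = 0.351) after the combination and at -0.79 (limma adjusted p = 0.172) in the combination against dexamethasone. IRF1 lay the other way after the combination, with a mean level of -0.23 against -1.0 in controls.

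Immediate early genes, the class to which IER3, DUSP1 and ZFP36 also belong, varied widely within groups. Their mean deviation per array ran from -0.55 to 0.67 in controls, where replicate 4 was the highest, from -0.30 to 0.79 after dexamethasone and from -0.88 to 0.74 after the combination. Of 21 measured, 17 lay above 0 after dexamethasone (median 0.40) and none was called in limma. At an unadjusted p under 0.05 in limma, 2 were lower and 2 higher (6.88% and 5.46% of all genes were). The lower genes were KLF6 at -0.96 ± 0.22 SE (limma adjusted p = 0.0787) and GADD45A at -1.44 (limma adjusted p = 0.205). The higher ones, named after their values were seen, were JUND at 1.08 (limma adjusted p = 0.259) and JUNB at 1.20 (limma adjusted p = 0.3). In the dexamethasone group the arrays had the same order for IER3 and for the mean of this list, lowest in replicate 1 and highest in replicate 4, and replicate 1 of the combination was the lowest of its group in both. In the controls replicate 4, the highest for the list, had the lowest IER3 level, 1.81. The part of this variation in the IER3 result was not tested.

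**Figure D4:**
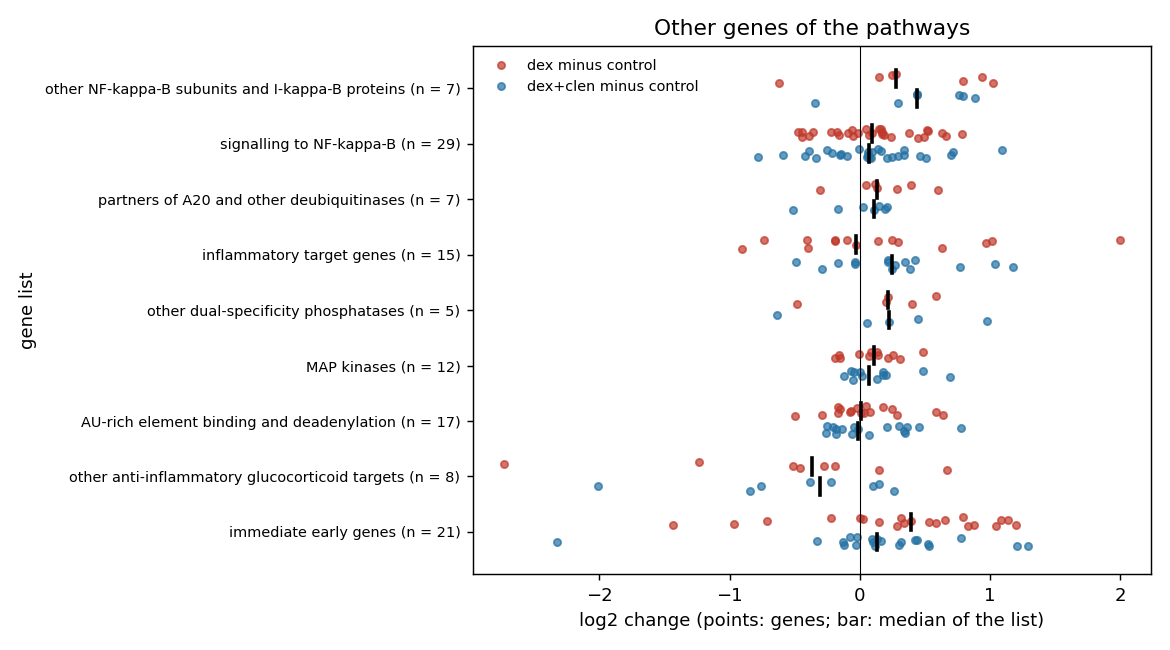
Log2 change of every measured gene of 9 gene lists (points) and the list's median (bar), for dexamethasone and for the combination, each against the same 4 controls. No gene shown passed an adjusted p under 0.05, and the list of other NF-kappa-B subunits and I-kappa-B proteins has medians of 0.28 and 0.44.

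Markers of other cell types were read in the same dexamethasone comparison, in which 45.4% of all genes lay below 0 and 6.88% were lower at an unadjusted p under 0.05. Of 12 leukocyte markers measured, 10 lay below 0 (median -0.65, CD3E called lower and 6 lower at an unadjusted p under 0.05), and their mean deviation was 0.25 to 0.56 in controls, -1.0 to 0.64 after dexamethasone and -0.31 to 0.27 after the combination. CD3D and ITGAM did not reach the filter on background. Of 10 fibroblast markers 9 lay below 0 (median -1.19, none called in limma and 6 at an unadjusted p under 0.05), with a mean deviation of 0.26 to 0.72 in controls, -1.54 to 0.51 after dexamethasone and -0.66 to 0.82 after the combination. Endothelial (median 0.11) and smooth muscle markers (median 0.13) had no call. In whole muscle, fewer cells of a type and less RNA per cell cannot be told apart.

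Dexamethasone replicate 1 had leukocyte and fibroblast means of 0.64 and 0.51, the first above all controls and the second within their range, and its NFKBIA level was 1.57. The part of these markers in the results for the members was not tested.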

How the data were processed

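Scanner files of 1-colour Agilent bovine arrays (Cy3, 1 array per bull) hold the intensity of each spot, made by Feature Extraction version 9.5.1.1 per the file headers. The authors also deposited a table of linear intensity values, which ordered the spots of each array almost as the scanner files do (lowest Spearman correlation 0.9999955, column medians 137.25 to 181.16667). How that table was made is unknown here.

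Levels are log2 processed signal minus the array's 75th percentile, averaged over a probe's spots, leaving out outlier spots (1 to 7 per array). A filter of 4 arrays with signal well above background kept 14703 probes. A probe counted as such on an array where 1 of its spots did. The brightest probe stood for a gene. That left 13671 genes, 11184 with a symbol, 934 having had several probes.

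Names came from the array design, updated through RefSeq (ARS-UCD2.0, names only) by gene number (9993 probes), accession (3410), symbol (383) or human match (3481), and 4208 kept the file's name.

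Tests used limma 3.58.1 (R 4.3.3), fitting 3 group means with lmFit and eBayes, with two-sided p-values adjusted by Benjamini-Hochberg within each contrast over all genes. The fit was tested on simulated data. Both treated groups share the controls.

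Slides and scan days follow the headers: scan day 2 held control replicate 4 and replicates 1 to 3 of both treated groups. The label code of dexamethasone replicate 4 names another slide than its file header, and the header was used. Members, lists and the rule for named genes (all members, called list genes up to 4 per list, else the 2 of smallest p, FKBP5, NR3C1, and the 3 genes most like each member) were chosen with earlier results of these data known.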

Additional observations from a re-analysis of the deposited data

Results flagged for a closer look

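Of 21 sets of 4 values (7 genes in 3 groups), 2 had an array far from the rest by Dixon's test, which chance flags in about 1 of 20. NFKBIA in dexamethasone replicate 3 was at 1.17, against 1.57 for the nearest array of its group, a gap of 0.915 of the group's range. RELA in control replicate 4 was at 1.67, against 1.37 for the nearest control (0.950 of the range).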

How the results depend on the processing

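NFKBIA after dexamethasone kept its direction in all 12 alternative settings (-2.09 to -1.81) and in the 12 fits that left out 1 array (-2.11 to -1.90, limma adjusted p of 0.00145 to 0.0456). Its call, and with it the count of members called (0), was lost with scan day 2 as a block (-1.81, limma adjusted p = 0.0512). Leaving out 1 array gave 1 member called after dexamethasone each time, 0 for the combination, and 0 to 1 between the treatments, the 1 being NFKBIA without combination replicate 2 (1.75, limma adjusted p = 0.016). Small differences between the treatments changed sign for DUSP1 (-0.06 with median centring, chosen after seeing the data; -0.31 without combination replicate 3, -0.02 without combination replicate 4, -0.32 without dexamethasone replicate 1; range -0.32 to 0.44) and RELA (-0.04 with median centring and -0.02 to 0.11 without 1 array). Other member differences kept their signs, but several that had not passed moved by over 1.5 times when 1 array was left out. Against control, dexamethasone ran from -0.72 to -0.07 for ZFP36 (lowest without control replicate 1, nearest 0 without control replicate 4) and -0.85 to -0.28 for DUSP1 (nearest 0 without dexamethasone replicate 1). The combination ran from 0.01 to 0.71 for ZFP36, 0.16 (without combination replicate 2) to 0.94 (without combination replicate 1) for IER3, -0.95 to -0.20 for DUSP1 and -0.76 to -0.26 (without combination replicate 2) for NFKBIA. Genes called after dexamethasone (84) numbered 25 with no filter and 13 with the scan day block, and 24 (without control replicate 1) to 261 (without dexamethasone replicate 1) when 1 array was left out. For the combination against control (6) they numbered 2 with the mean of a gene's probes, 3 with quantile normalization, normexp and the 2 groups alone, 0 with no filter, the scan day block, the slide block and probes measured on all arrays, and 0 to 11 without 1 array. Between the treatments (2) they numbered 1 with normexp and with probes measured on all arrays, 0 with quantile normalization, median centring, the mean of probes, no filter, the 2 groups alone and the scan day and slide blocks, and 0 to 74 (without dexamethasone replicate 1) when 1 array was left out. The causes were not tested. With no filter the median of all genes shifted to 0.139 after dexamethasone and 0.106 after the combination. No paired analysis was possible because the labels give the groups no shared replicate numbers. TNFAIP3 and NFKB1 are limited by signal over background.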
